A study of Mus musculus with 2 samples.

Results

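Plasmacytoid dendritic cells (pDCs) were chosen by a gate on single cells in 1 KO and 1 WT library of leukocytes from B16-F0 melanoma, a transplantable mouse tumour. A cell was kept at 1000 or more unique molecular identifiers (UMIs, each standing for 1 captured RNA molecule), 500 or more genes and at most 10% mitochondrial UMIs. A kept cell was selected as a pDC on at least 3 UMIs of Siglech and at least 1 of Tcf4, with at most 1 UMI of Cd3d and Cd3e together, none of Ms4a1 or Ncr1, at most 1 of Xcr1 and Clec9a together and at most 1 of Cd209a. The gate took 68 of 11131 cells in the KO library and 137 of 11153 in the WT library, 205 of 22284 in all. The tumours of both genotypes were B16-F0, and viable CD45+ cells, negative for the dye DAPI, had been sorted before loading. The labels give the genotypes only as KO and WT and do not name the targeted gene, so the KO label could not be checked, and they name no age, number of mice or pooling. They call the cell type TIL-Treg, whereas the sort that is described takes leukocytes of any kind. Because each genotype was 1 library, no difference has a replicate check, genotype, animal and library cannot be told apart, and no test was made.

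pDCs are the dendritic cells that sense viral nucleic acids with the endosomal receptors TLR7 and TLR9 and answer through MyD88 and IRF7 with type I interferon. The E-box factor TCF4 (E2-2) sets and maintains their identity, with SPIB, RUNX2, BCL11A and IRF8, whereas ID2, its inhibitor, is high in conventional dendritic cells (cDCs). In tumours pDCs are often described as poor interferon producers, and they present antigen less well than cDCs do.

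The KO library held 112544655 UMIs in 11398 barcodes and the WT library 98438084 in 11432, and 42 barcodes occurred in both matrices. No pDC barcode was gated in both libraries, and 1 WT pDC barcode occurred in the KO matrix. Kept cells had a median of 6360 UMIs in the KO and 5191 in the WT library. All intervals in brackets are exact 95% intervals and cover counting error only, since cells of 1 library are not replicates.

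The pDCs had a median of 8894 UMIs (2290 to 32986) in the KO and 8478 (3558 to 28489) in the WT library, and 604173 and 1218335 UMIs in sum. The values on which the gate rests set a sharp edge. Exactly 3 Siglech UMIs were held by 2 KO and 3 WT pDCs, and cells that met all else but held 2 numbered 1 in KO and 4 in WT. Just inside the threshold Bst2 had 17 to 36 UMIs in the KO and 11 to 36 in the WT cells, and just outside it 20 in the KO cell and 11 to 46 in the WT cells. Siglech UMIs per pDC had a median of 16 (3 to 41) in KO and 17 (3 to 41) in WT, and Tcf4 UMIs a median of 12.5 (2 to 29) in KO and 15 (3 to 44) in WT.

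6 of the pDCs stood apart before any comparison. 1 KO and 5 WT cells held 10 or more UMIs of C1qa and Lyz2, macrophage genes, in sum (38 in the KO cell and at least 61 in the WT cells), whereas no other pDC held more than 3 in KO or 2 in WT. They were also the deepest, with 32986 UMIs in KO and 19217 to 28489 in WT, against at most 14688 and 13458 in the other pDCs. They carried 5.46% of the KO and 9.68% of the WT pDC UMIs, but 64.9% and 95.9% of the Lyz2 UMIs. The cells with the highest doublet scores in each library included the KO cell and 4 of the 5 WT cells. The main results they touch are given with and without these macrophage-RNA cells, a limit chosen after seeing the data.

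pDCs were a smaller share of the KO than of the WT library. The share was 0.611% [0.475, 0.774] of KO and 1.23% [1.03, 1.45] of WT kept cells, a fold of 0.497 [0.366, 0.670] and a log2 ratio of -1.01 [-1.45, -0.58]. Shares sum to a whole and B cells were 3.79% of the KO and 31.2% of the WT library, so the share was also taken without B cells, at 0.639% [0.496, 0.809] in KO and 1.93% [1.62, 2.28] in WT, a log2 ratio of -1.60. Among the cells of the 4 dendritic gates (pDC, cDC1, cDC2 and mature DC), pDCs were 10.8% of 629 cells in KO and 25.4% of 539 in WT, a log2 ratio of -1.23 [-1.67, -0.80]. Of all kept cells, cDC1 cells, the cross-presenting type, were 1.24% [1.04, 1.46] in KO and 1.17% [0.983, 1.39] in WT. Mature DCs were 0.350% [0.249, 0.479] and 0.260% [0.174, 0.373], and both pairs of intervals overlap. cDC2 cells, which prime CD4 T cells, were higher in KO, at 3.45% [3.12, 3.81] and 2.17% [1.91, 2.46]. Without B cells the denominators were 10643 cells in KO and 7097 in WT. cDC1 cells (138 and 131) and mature DCs (39 and 29) were then also a smaller share in KO. cDC2 cells (384 and 242) were a slightly larger one, and no intervals were taken for these shares. Of pDC- and cDC1-gated cells together, pDCs were 33.0% [26.6, 39.9] in KO and 51.1% [45.0, 57.2] in WT. Without the macrophage-RNA cells the log2 ratio of the pDC share was -0.98 (67 cells in KO and 132 in WT), and with all cells thinned to 2000 UMIs before gating it was -1.35 (52 and 133 cells).

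**Figure D1:**
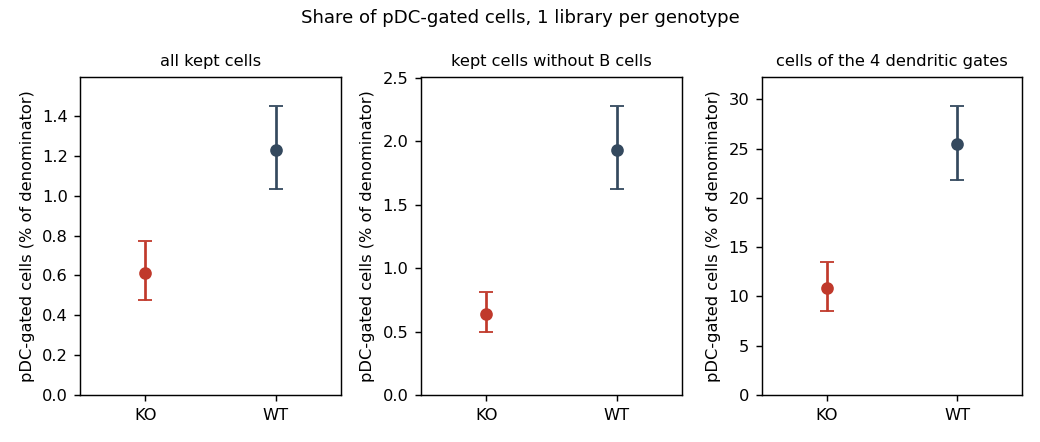
Share of pDC-gated cells (vertical axis, % of the denominator named above each panel) in the KO (red, left) and WT (dark, right) libraries, with points at the share and bars at the exact 95% counting interval, 1 library per genotype. The KO share is below the WT share with each denominator, at 0.611% against 1.23% of all kept cells and 10.8% against 25.4% of dendritic cells.

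The label fitted the cells by genes that the gate did not use. In CPM, the UMIs of a gene summed over a gate and scaled to a common total, Bst2, the tetherin recognised by the pDC antibody PDCA-1, had 3827 in KO and 3841 in WT pDCs, against at most 484 and 395 in any of the B, T, NK, macrophage and other dendritic gates. Ccr9, a chemokine receptor of gut homing, had 1329 CPM in KO and 1292 in WT pDCs, and at most 6.24 and 10.1 CPM in those gates. Cox6a2, a subunit of cytochrome c oxidase otherwise typical of muscle, had 1471 and 1413 CPM, and at most 8.15 and 13.1 in those gates. Cells that fit no gate were left out of all levels by gate, among them Siglech cells that the pDC limits removed. Irf8 had 3092 and 3007 CPM and was shared with cDC1 cells, at 2056 and 1796 CPM. Ly6d, a surface protein that marks early B-lineage commitment, had 3237 and 2990 CPM in pDCs and was shared with B cells, at 1226 and 1451 CPM. With cells thinned to 2000 UMIs, Ccr9 was seen in 82.4% [71.2, 90.5] of KO and 84.7% [77.5, 90.3] of WT pDCs (95.6% and 97.8% unthinned, at median depths of 8894 and 8478 UMIs), against 0.723% of KO and 0.467% of WT B cells (median depths of 3486 and 3342 UMIs), which lack it. Some markers of other lineages were at or near 0: Cd79a had 0 CPM in KO and 14.0 in WT pDCs, Cd3g 0 and 3.28, and Ms4a1 and Ncr1, used by the gate, 0 in both. Others were not: Cd79b, a B-cell gene, had 38.1 and 48.4 CPM, in 29.4% of KO and 32.8% of WT pDCs. The macrophage genes Lyz2 (94.3 and 539 CPM) and C1qb (14.9 and 91.9 CPM) were mostly in the macrophage-RNA cells.

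Siglech, the sialic acid-binding lectin that signals through DAP12 and gave the gate, lies on the plus strand of chromosome 7 (chr7:55768178-55778925, GRCm38). It had 1874 CPM (1132 UMIs) in KO and 2047 CPM (2494 UMIs) in WT pDCs. In the other gates it was at most 15.9 CPM in KO, in 20 neutrophils, and 12.6 CPM in WT. The gates of other dendritic cells required fewer than 3 Siglech UMIs, so low values there were set in advance. TCF4 binds E-boxes, and the RefSeq promoter window of Siglech on GRCm38.p6 (chr7:55767934-55768233, plus strand, 250 bases before to 50 after the start) is shown because it holds 3 copies of CANNTG, in capitals, at 235, 56 and 20 bases before the start.
Siglech: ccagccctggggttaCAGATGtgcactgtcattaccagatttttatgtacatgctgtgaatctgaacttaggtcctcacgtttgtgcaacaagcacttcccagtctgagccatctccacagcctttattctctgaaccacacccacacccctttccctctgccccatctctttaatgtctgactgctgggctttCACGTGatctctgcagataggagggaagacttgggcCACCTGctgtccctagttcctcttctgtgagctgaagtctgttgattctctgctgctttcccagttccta
The motif reads the same on both strands, and 72.3% of the 32851 promoter windows hold at least 1 copy, so its presence says little about any 1 gene. The window of Ccr9 holds 2 copies.

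**Figure D2:**
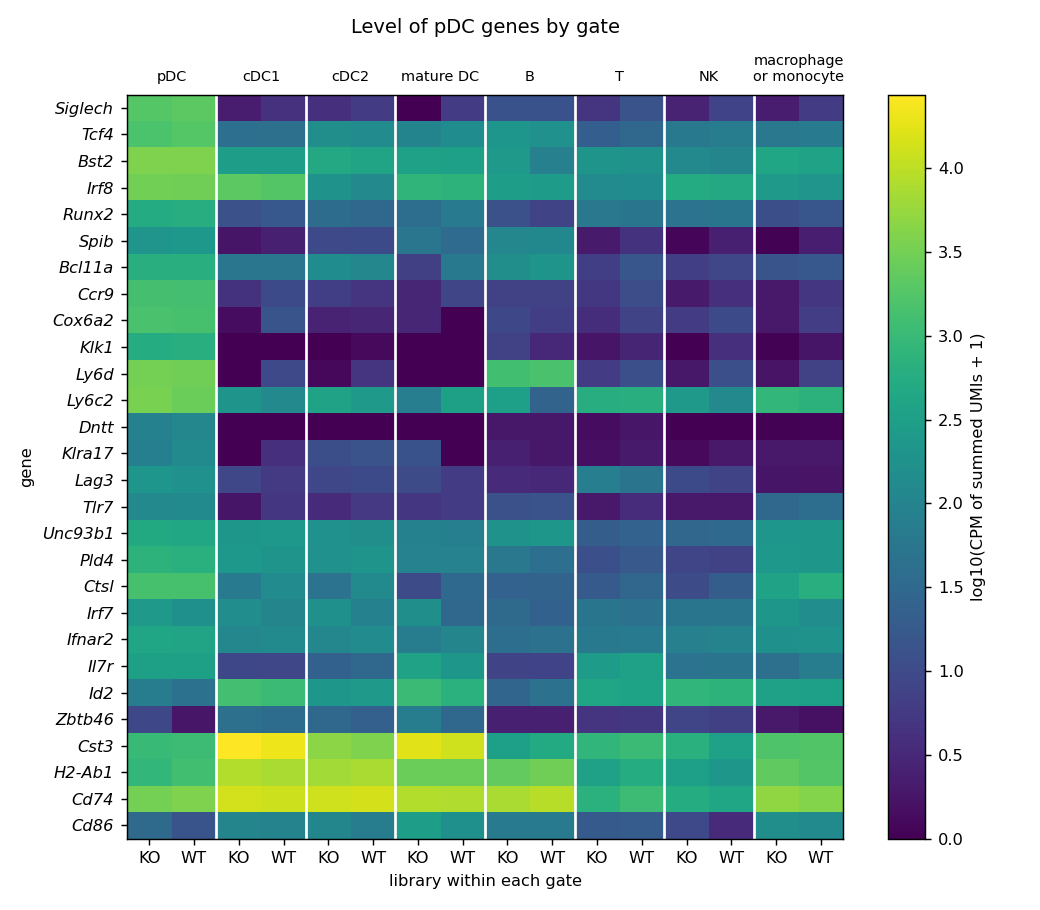
Levels of pDC genes (rows) in 8 gates (column pairs, KO left of WT), colour giving log10 of the CPM of summed UMIs plus 1. Siglech, Ccr9, Cox6a2 and Klk1 are bright in the pDC columns and near 0 elsewhere, Ly6d is shared with B cells, Irf8 with cDC1 cells, and Cst3 and MHC class II genes are higher in the cDC columns.

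The 20 genes that most set pDCs apart from all other kept cells in both libraries included, after the gating gene, Klk1, a tissue kallikrein, at 558 CPM in KO and 616 in WT pDCs. It had at most 6.24 CPM in KO and 3.15 CPM in WT in the other gates. Dntt, the template-independent DNA polymerase of antigen receptor rearrangement, had 89.4 and 111 CPM in pDCs and under 1 CPM in every other gate of both libraries. Cd300c, an activating receptor, had 222 and 297 CPM, and Smim5, a small membrane protein, 367 and 432 CPM. The rest of the list was Sh3bgr, Cox6a2, Ccr9, Chdh, Klk1b27, Cdh5, Foxr1, Paqr5, Atp2a1, Ccdc162, Ptprf, Pdzd4, Upb1, Pir and Klra17. These are descriptions of gated cells, not tests.

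Among the identity factors, Tcf4, also used by the gate, had 1521 CPM in KO and 1880 in WT pDCs (log2 ratio -0.31 [-0.42, -0.19]), against at most 210 and 175 CPM elsewhere, in B cells. Bcl11a, a zinc-finger factor upstream of pDC fate, had 637 and 627 CPM, Runx2, which directs pDC exit from marrow, 533 and 583 CPM, and Spib, an Ets factor, 202 and 229 CPM. Runx2 was at most 59.0 CPM in KO and 63.4 CPM in WT in other gates. Id2, the inhibitor of TCF4, had 76.1 CPM in KO and 46.8 in WT pDCs, against 1278 and 1058 in cDC1 cells, and Zbtb46, a factor of cDCs, had 5 UMIs in KO and 1 in WT pDCs.

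Cst3, cystatin C, abundant in cDCs, had 968 CPM in KO and 1089 in WT pDCs, against 27415 and 21525 in cDC1 cells. H2-Aa, an MHC class II chain, had 1101 and 1511 CPM in pDCs, against 6392 and 5999 in cDC1 and 5655 and 6361 in cDC2 cells. Cd86, a costimulatory ligand, had 33.1 and 13.1 CPM in pDCs, against 291 and 171 in mature DCs. In both libraries pDCs held the lowest H2-Aa, H2-Ab1, Cd74 and Cd86 CPM of the 4 dendritic gates.

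Of the nucleic acid-sensing path, Tlr7, the receptor of single-stranded RNA, had 122 CPM in KO and 126 in WT pDCs, against 28.8 and 39.2 CPM in macrophages or monocytes. Tlr9, the receptor of CpG DNA, was sparse in this 3' assay, with 6 UMIs (9.93 CPM) in KO and 8 UMIs (6.57 CPM) in WT pDCs, seen in 7.35% of KO and 5.84% of WT pDCs and in 4.17% and 3.31% of cDC2 cells, unthinned. Unc93b1, which carries both receptors to endosomes, had 500 and 445 CPM, Ctsl, a protease that cleaves them, 1392 and 1422 CPM, and Pld4, an endosomal nuclease, 730 and 662 CPM. Ifnar2, a chain of the type I interferon receptor, had 399 and 386 CPM in pDCs, against at most 171 and 185 CPM elsewhere. Il7r, an interleukin 7 receptor chain of lymphoid cells, had 329 and 337 CPM.

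pDCs were not uniform. Genes were ranked by variance over mean in cells thinned to 2000 UMIs, where 2302 genes had a median ratio of 1.04 in both libraries, close to counting noise. The 12 most variable were Malat1, Ccl6, Ccl4, Ly6d, Cd74, Lgals3, Ly6c2, Crip1, S100a4, H2-Aa, Ly6a and Klk1. Without the macrophage-RNA cells 9 of these stayed among the first 12 of 2237 genes, and Ccl6, Lgals3 and S100a4 gave way to H2-Ab1, Slfn5 and Cox6a2. Ccl6, seen in 3 KO and 5 WT thinned pDCs, then had a ratio of 0.985 in KO. Ly6d had a ratio of 5.08 in KO and 5.99 in WT pDCs, and Ly6c2, a monocyte and pDC surface protein, 5.53 and 3.89. Ccl4, an inflammatory chemokine, was in 23.5% of KO and 22.6% of WT thinned pDCs, with a ratio of 5.40 and 10.9. Klk1 had a ratio of 6.75 and 3.22, seen in 32.4% and 44.5% of thinned cells, against 0.241% of KO and 0.0584% of WT B cells, so many pDCs had none or few UMIs and some had up to 65 in KO and 54 in WT unthinned.

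Some of these genes varied together across pDCs without the macrophage-RNA cells. Across 67 KO and 132 WT cells, Spearman's rho between UMI shares was 0.87 and 0.90 for H2-Aa with H2-Ab1 and 0.86 and 0.88 for H2-Aa with Cd74. Cd74, the class II invariant chain, with H2-Ab1 gave 0.82 and 0.90. It was 0.52 in KO and 0.42 in WT for Cox6a2 with Ly6d, and 0.14 and 0.25 for H2-Aa with Cox6a2. The cells of a library share 1 preparation and differ in depth, so these values are descriptions. Class II genes varied together more closely than they did with Cox6a2 or Klk1. H2-Aa with Klk1 gave 0.39 in KO and 0.50 in WT.

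**Figure D3:**
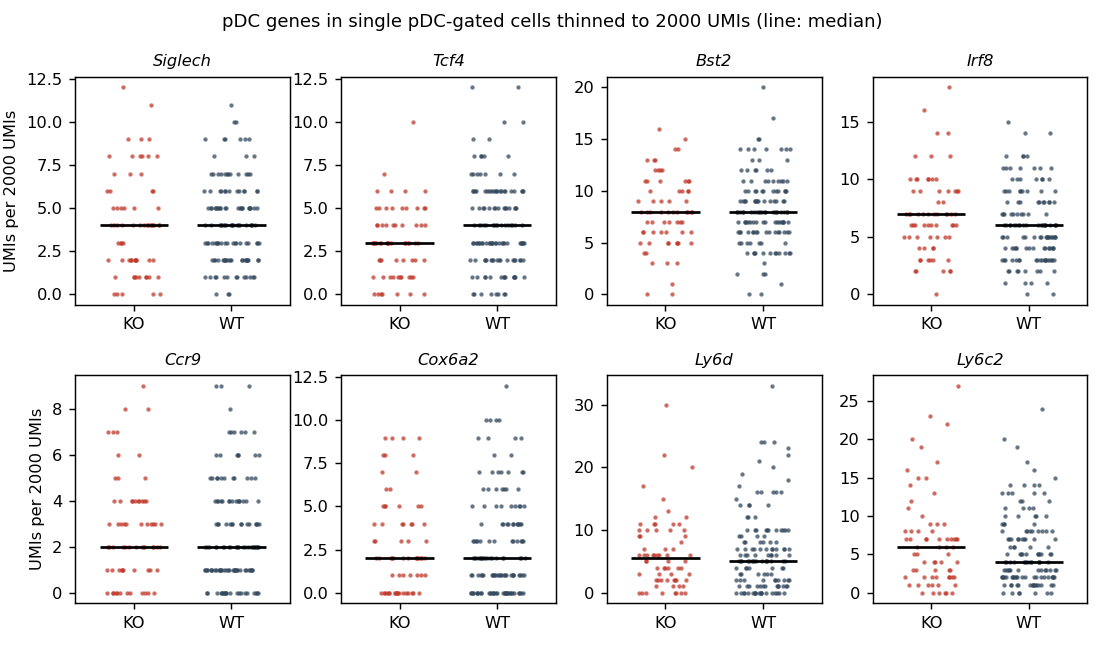
UMIs of 8 pDC genes (vertical axes) in each pDC thinned to 2000 UMIs, KO (red, left) and WT (dark, right), points jittered sideways, black lines at the median. Bst2 and Irf8 are present in nearly all cells of both libraries, whereas Cox6a2, Ccr9 and Ly6d spread from 0 upwards in both.

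The comparison of KO with WT pDCs asked how far the RNA of these cells differed with genotype. Of 7129 genes with 20 or more UMIs over both libraries, 233 were higher in KO pDCs (3.27% of genes measured) and 161 lower (2.26%) past a rule of size, a ratio of at least 1.5-fold with an interval excluding 1, which is no test. The median log2 ratio was 0.04. Rescaling by TMM factors gave 184 higher and 209 lower, so that 46.8% of calls were higher, against 59.1% as first scaled and 54.7% with median-of-ratios scaling. Without the macrophage-RNA cells 258 genes of 6843 were higher and 111 lower, of which 190 and 84 were shared with the first count. Without the cell that held most UMIs of a gene in each library, 153 genes were higher and 203 lower.

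Iigp1, an immunity-related GTPase of the interferon response, ranked first among the higher genes by the distance of the interval from 0. It had 85 UMIs [67.9, 105] or 141 CPM in KO and 42 UMIs [30.3, 56.8] or 34.5 CPM in WT pDCs, a log2 ratio of 2.03 [1.48, 2.60], and 2.39 without the macrophage-RNA cells. It was higher in the KO library in the other gates too, at a log2 ratio of 1.98 in cDC1, 1.54 in cDC2, 2.29 in macrophages or monocytes and 3.35 in B cells, and no difference between the gates was tested. Ccnd2, cyclin D2, had 306 CPM (185 UMIs) in KO and 106 CPM (129 UMIs) in WT pDCs, a log2 ratio of 1.53 [1.20, 1.87] that stayed past the size rule in all 15 alternatives. It was in 30.9% of KO and 12.4% of WT thinned pDCs (55.9% and 37.2% unthinned), against 6.27% and 3.56% of thinned B cells, and had a log2 ratio of 1.75 [1.47, 2.02] in B, 0.74 in cDC1 and 0.49 in cDC2 cells.

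Lgals3, galectin-3, had 803 CPM in KO and 418 CPM in WT pDCs, a log2 ratio of 0.94 [0.76, 1.12]. The macrophage-RNA cells held 43.1% of its KO and 67.4% of its WT UMIs, and without them it was at 276 UMIs in KO and 166 in WT, a ratio of 1.68. It was in 44.1% of KO and 19.0% of WT thinned pDCs, against 10.8% and 9.66% of thinned B cells. With both dendritic limits of the gate lifted, the ratio was 0.21 and no longer past the rule.

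Other higher genes were more modest in UMIs. Icam1, an adhesion molecule, had 77.8 CPM in KO and 32.0 in WT (log2 1.28 [0.64, 1.93]), and Cd200r1, an inhibitory receptor, 111 and 54.2 CPM (1.03 [0.52, 1.55]). Rgs1, a brake on chemokine receptor signalling, had 147 and 69.8 CPM (1.08), Tpi1, a glycolytic enzyme, 218 and 106 CPM (1.05), and Rpia, of the pentose phosphate pathway, 76.1 and 30.4 CPM (1.33). With the dendritic limits lifted, Cd200r1 (0.57), Rgs1 (0.56) and Tpi1 (0.48) were no longer past the rule. Sct, secretin, had 44 UMIs in 6 KO cells and 27 in 6 WT cells, 45.5% and 59.3% of them in 1 cell. Thbs1, thrombospondin 1, had all of its 43 KO UMIs in 1 cell, the KO macrophage-RNA cell, and 96.9% of its 32 WT UMIs in 1 cell.

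The macrophage-RNA cells carried several of the lower genes. C1qc, a complement subunit of macrophages, had 2 UMIs in KO and 71 in WT, Arg1, arginase, 7 and 89, Hmox1, haem oxygenase, 13 and 92, and Aif1, an actin-binding protein of macrophages, 11 and 69. The 5 WT macrophage-RNA cells held 97.2%, 97.8%, 92.4% and 87.0% of those WT UMIs in that order, and without the macrophage-RNA cells none of the 4 reached 20 UMIs. H2-Eb1, a class II chain, had a log2 ratio of -0.66 [-0.85, -0.48], which was -0.35 and short of the rule without these cells, and Epsti1, an interferon-induced gene, -0.95 with and -0.55 without them.

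Genes that stayed lower without those cells were Ctse, Tsc22d3, Sbno1, Pnpla7, Sik3 and Hspa1a. Ctse, the endosomal protease cathepsin E (chr1:131638306-131675505), had 71.2 CPM in KO and 144 CPM in WT pDCs, a log2 ratio of -1.02 [-1.54, -0.53] and -1.05 without them. It was seen in 16.2% [8.36, 27.1] of KO and 30.7% [23.1, 39.1] of WT thinned pDCs (36.8% and 70.8% unthinned), and was lower in the KO library in the cDC1 (-1.53), cDC2 (-1.32), B (-1.53), T (-1.68), NK (-1.27) and macrophage or monocyte (-0.91) gates as well. Tsc22d3, the glucocorticoid-induced leucine zipper, had 29.8 and 78.0 CPM in pDCs, a log2 ratio of -1.39 [-2.20, -0.65]. It was at 0.08 in cDC1, 0.30 in cDC2, -0.22 in B, -0.40 in T, 0.36 in NK cells and -0.09 in macrophages or monocytes. In pDCs it was -0.52, short of the rule, with the dendritic limits lifted. Sbno1, a nuclear helicase-like protein, had 34.8 and 82.9 CPM (-1.25), Pnpla7, a lysophospholipase, 13.2 and 39.4 CPM (-1.57), and Sik3, a salt-inducible kinase, 11.6 and 36.1 CPM (-1.64). Pnpla7 was also at -1.33 in cDC1, -0.24 in cDC2, -0.38 in B, -0.42 in T, -0.44 in NK cells and -0.66 in macrophages or monocytes. Hspa1a, the inducible chaperone HSP70, had 9 UMIs in KO and 118 in WT, 63.6% of the WT UMIs in 1 cell.

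**Figure D4:**
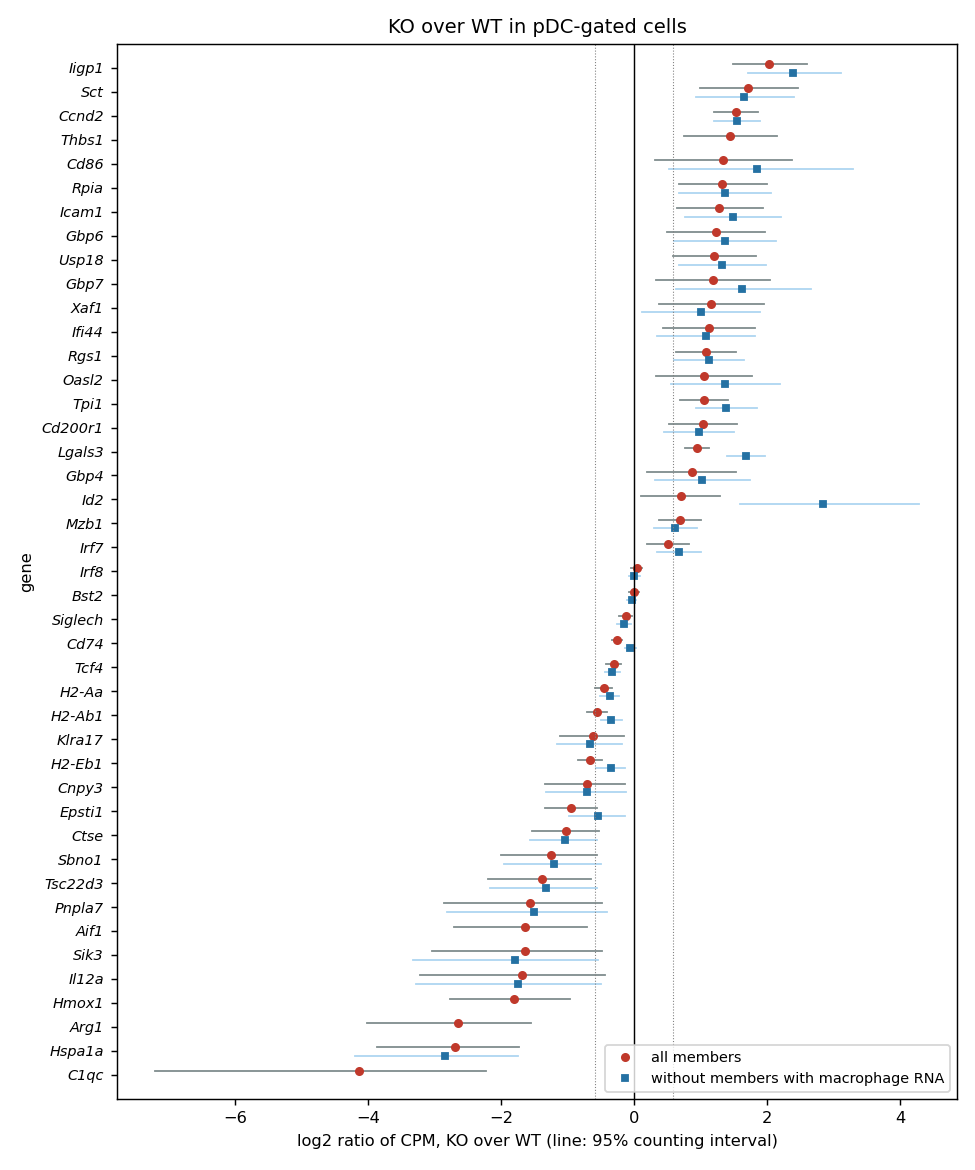
Log2 ratio of CPM, KO over WT, in pDCs (horizontal axis) for the ranked genes and selected listed genes (rows), with all cells (red circles) and without the 6 macrophage-RNA cells (blue squares), lines giving 95% counting intervals and dotted lines the 1.5-fold limits; genes under 20 UMIs without those cells have no square. Iigp1, Ccnd2 and the guanylate-binding proteins lie right of 0 under both, and Siglech, Bst2 and Irf8 lie near 0.

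Several genes of the interferon responses were higher in KO pDCs. Of 28 listed type I response genes 26 were in the files and 16 were measured. Of these, 4 were higher past the size rule and 0 lower, beside 3.27% and 2.26% of all genes measured, with a median log2 ratio of 0.41 against 0.04. Usp18, which dampens signalling at IFNAR2, had 81.1 CPM in KO and 35.3 in WT pDCs (log2 1.20 [0.58, 1.83]). Ifi44 had 64.6 and 29.5 CPM (1.13 [0.44, 1.82]), Oasl2, an oligoadenylate synthetase-like protein, 57.9 and 27.9 CPM (1.05 [0.33, 1.78]), and Xaf1, a pro-apoptotic gene, 31 UMIs in KO and 28 in WT (1.16 [0.37, 1.95]). In other gates Ifi44 was at 2.18 in cDC1, 3.80 in cDC2, 2.07 in T, 1.87 in NK cells and 4.47 in macrophages or monocytes. Usp18, Oasl2 and Xaf1 were at 0.86, 0.52 and 0.71 in cDC2 cells and 0.70, 0.52 and 0.37 in macrophages or monocytes. In cDC1 cells they were at -0.15, -0.11 and 0.21. No difference between the gates was tested. Bst2, also interferon-induced, was near equal, at a log2 ratio of -0.01 [-0.08, 0.07].

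Without the macrophage-RNA cells 7 of 14 measured type I genes were higher, beside 3.77% of all genes. Irf7, Isg15 and Zbp1 were added, and the median was 0.58. Some other choices of cells gave less. With the highest doublet scores removed, 1 of 14 was higher and 1 lower with a median of 0.14. Without the deepest 10% of pDCs 2 of 13 were higher with a median of 0.22, and without the top cell of each gene 4 of 14 with a median of 0.14. Others gave more. At 2000 or more UMIs and at most 5% mitochondrial UMIs 6 of 15 were higher, beside 3.22% of all genes, with a median of 0.58. At a Siglech minimum of 5 UMIs 4 of 15 were higher, beside 3.30%, with a median of 0.48. With all pDCs Irf7, the master factor of interferon genes in pDCs, had 242 CPM in KO and 170 in WT (0.51 [0.19, 0.82]), and Isg15, a ubiquitin-like modifier, 121 and 85.4 CPM (0.50 [0.05, 0.95]), both short of 1.5-fold. In cells thinned to 2000 UMIs 6 genes were measured, none past the rule, with a median of 0.18, and Isg15 was at -0.52. Most pDCs had some of this RNA, and a few had much more. The list without Bst2 was seen in 94.1% of KO and 93.4% of WT pDCs and summed to a median of 5 UMIs per pDC (0 to 99) in KO and 3 (0 to 72) in WT, 7 KO and 12 WT cells held 20 or more, and the top 5 cells held 46.9% of the KO and 30.1% of the WT sum. The KO cell with 99 UMIs was the macrophage-RNA cell, and the 5 WT cells of that kind held 24.8% of the WT sum.

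Of 22 genes of the interferon gamma response 17 were measured, 4 of them higher and 1 lower past the rule, beside 3.27% and 2.26% of all genes, with a median of 0.34. Besides Iigp1 these were 3 guanylate-binding proteins, GTPases that attack vacuoles of intracellular microbes. Gbp4 had 62.9 CPM in KO and 34.5 in WT (0.87 [0.20, 1.54]), Gbp6 59.6 and 25.4 CPM (1.23 [0.49, 1.97]) and Gbp7 44.7 and 19.7 CPM (1.18 [0.33, 2.04]), and all 3 stayed past the rule without the macrophage-RNA cells. With the dendritic limits lifted, Gbp7 (0.58) and, of the type I genes, Xaf1 (0.56) were just short of it. The lower gene was Cxcl10, a chemokine for CXCR3, at 28.1 CPM (17 UMIs) in KO and 50.9 CPM (62 UMIs) in WT. The macrophage-RNA cells held 1 of its KO and 61 of its WT UMIs, which leaves 16 in KO and 1 in WT. Of the 17 KO UMIs 82.4% were in 1 other cell. Without the macrophage-RNA cells the list had 4 genes higher and 0 lower. Irf1, an early factor of this response, had 245 and 187 CPM (0.39).

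Interferon-stimulated genes often carry an ISRE-type element, here searched as GAAANNGAAA on both strands in the same RefSeq windows on GRCm38.p6. Of the 12 genes looked up for either motif 9 had a window, without Usp18, Gbp4 and Gbp6. The windows of Bst2 (chr8:71537423-71537722, minus strand), Isg15 (chr4:156200769-156201068, minus strand) and Gbp7 (chr3:142530086-142530385, plus strand) are shown because they hold it, in capitals.
Bst2: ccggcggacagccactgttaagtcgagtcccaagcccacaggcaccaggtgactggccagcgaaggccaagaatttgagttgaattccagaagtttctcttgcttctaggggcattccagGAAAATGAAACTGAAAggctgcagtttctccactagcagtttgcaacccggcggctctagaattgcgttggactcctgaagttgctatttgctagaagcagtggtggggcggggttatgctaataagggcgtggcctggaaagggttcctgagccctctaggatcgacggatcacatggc
Isg15: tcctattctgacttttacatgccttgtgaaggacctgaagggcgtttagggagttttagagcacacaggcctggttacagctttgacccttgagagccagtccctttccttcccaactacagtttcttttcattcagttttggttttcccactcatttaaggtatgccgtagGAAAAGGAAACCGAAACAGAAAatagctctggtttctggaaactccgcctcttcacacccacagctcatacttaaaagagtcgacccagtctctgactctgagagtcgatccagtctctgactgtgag
Gbp7: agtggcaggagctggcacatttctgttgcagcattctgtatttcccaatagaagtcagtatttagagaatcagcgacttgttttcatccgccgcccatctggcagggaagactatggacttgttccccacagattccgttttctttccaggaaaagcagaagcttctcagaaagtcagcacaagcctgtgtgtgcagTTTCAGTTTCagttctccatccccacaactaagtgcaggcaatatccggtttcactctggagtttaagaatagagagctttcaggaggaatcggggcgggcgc
Bst2 holds 2 overlapping copies, 130 and 124 bases before the start, and Isg15 holds 3, at 78, 72 and 66 bases. Gbp7 holds 1 copy as the reverse complement, 53 bases before the start. These letters occur in 3.44% of the 32851 windows and were not found in those of Ifi44, Oasl2, Xaf1 and Irf7. The matches are descriptions of letters: Bst2, with 2 copies, was near equal between the libraries, and Ifi44, with none, was higher in KO.

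The interferons themselves were not seen. All 17 Ifna, Ifnb1 and Ifnl genes in the files had 0 UMIs in pDCs of both libraries, which allows up to 4.97 CPM each in KO and 2.46 CPM in WT, or up to 4.41% of KO and 2.19% of WT pDCs with a UMI. Il6 and Il12b were also at 0. Of 25 listed interferons and cytokines 7 were measured, with 0 higher and 4 lower (Cxcl10, Ccl5, Ccl3 and Il12a), beside 3.27% and 2.26% of all genes. The median was -0.85, or -0.04 over 5 genes without the macrophage-RNA cells. Il12a, the p35 subunit of interleukin 12, had 6 UMIs (9.93 CPM) in KO and 39 (32.0 CPM) in WT pDCs, a log2 ratio of -1.69 [-3.22, -0.44] that these cells did not touch (-1.75) but that was -0.23 with the dendritic limits lifted. Ccl3 and Ccl4, inflammatory chemokines, had 19.9 and 56.6 CPM (-1.51) and 339 and 370 CPM (-0.13). Ccl5 had 13 UMIs in KO and 98 in WT, 81.6% of the WT UMIs in macrophage-RNA cells, and a ratio of 0.24 without them.

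In the TLR list 20 of 22 genes were measured, with a median of 0.11. Past the rule 1 was higher and 1 lower, beside 3.27% and 2.26% of all genes. Chuk, the IKK-alpha kinase, had 59.6 CPM in KO and 34.5 in WT (0.79), and Cnpy3, a chaperone of Toll-like receptors, 53.0 and 87.0 CPM (-0.72 [-1.33, -0.13]). Cnpy3 was at 0.25 in thinned cells and at -0.36 with the dendritic limits lifted. Ctsl (-0.03), Ctsb (0.00), Pld4 (0.14), Unc93b1 (0.17) and Tlr7 (-0.05 [-0.47, 0.36]) were close to equal.

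Of 24 listed identity transcription factors 20 were measured, 2 higher and 0 lower, beside 3.27% and 2.26% of all genes, with a median of -0.01. The higher ones were Id2 (0.70 [0.11, 1.29]) and Ikzf2, Helios (44.7 CPM in KO and 24.6 in WT, 0.86 [0.05, 1.66]). Id2 rested on which cells were included: without the macrophage-RNA cells it had 26 UMIs in KO and 7 in WT, a ratio of 2.84, and with the dendritic limits lifted it turned to -0.80. Of 35 surface and secreted pDC genes, all measured, 0 were higher and 1 lower, beside the same shares of all genes, with a median of 0.07. The lower one was Klra17, a Ly49-family lectin receptor known as Ly49Q, at 81.1 CPM in KO and 125 in WT (-0.62 [-1.12, -0.15]), or -0.48 with the dendritic limits lifted. Plac8 (0.19), Tyrobp, the adaptor DAP12 (-0.06), Ccr9 (0.04), Cox6a2 (0.06) and Ly6c2 (0.37) were all short of the rule.

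Calls in MHC class II genes depended on the cells included, and no class I gene was past the rule. Of 21 class II and costimulatory genes 15 were measured, with a median of 0.15. Past the rule 1 was higher and 2 lower (H2-Eb1 and Ccr7), beside 3.27% and 2.26% of all genes. The higher one was Cd86 (1.33 [0.31, 2.38], or 0.46 with the dendritic limits lifted). Cd74 had 3176 CPM in KO and 3810 in WT (-0.26), H2-Aa was at -0.46 and H2-Ab1 had 851 and 1251 CPM (-0.56), and without the macrophage-RNA cells these ratios were -0.06, -0.37 and -0.34. With the dendritic limits lifted 5 genes of the list were lower and 2 higher, beside 3.21% and 2.73% of all genes, and the median was -0.28. H2-Aa (-0.66) and H2-Ab1 (-0.99) were then past the rule. Both were also past it without the top cell, at -0.61 and -0.60. H2-Aa was seen in 52.9% [40.4, 65.2] of KO and 65.7% [57.1, 73.6] of WT thinned pDCs, intervals that overlap. Ccr7, the lymph-node homing receptor of mature DCs, had 0 UMIs in KO and 32 in WT, at least 5.29-fold lower against a floor of 3 UMIs over the KO sum, and 23 of the WT UMIs were in macrophage-RNA cells. All 14 class I genes were measured, 0 past the rule either way, with a median of 0.17, among them B2m (2408 and 2152 CPM, 0.16) and H2-D1 (2057 and 1784 CPM, 0.21).

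Receptors varied one by one, and their counts stand beside 3.27% higher and 2.26% lower of all genes measured. Of 21 inhibitory and ITAM-linked receptors 18 were measured, with 2 higher (Cd200r1 and Pirb, a class I-binding inhibitory receptor, 134 CPM in KO and 85.4 in WT, 0.65, or 0.25 with the dendritic limits lifted), 1 lower (Klra17) and a median of 0.03. Lair1, a collagen receptor, had 677 and 644 CPM (0.07), and Lag3, an inhibitory receptor that pDCs shared with T cells, 214 and 175 CPM (0.29). Of 18 homing genes 15 were measured, 0 higher and 2 lower, with a median of -0.05. Ccr2, the CCL2 receptor, had 147 and 242 CPM (-0.72 [-1.08, -0.37]) and -0.41 without the macrophage-RNA cells, and Ccr7 was the other. Of 20 growth factor and interferon receptors 17 were measured, 0 higher and 1 lower (Csf1r, of macrophages, with 3 UMIs in KO and 25 in WT, or 2 and 2 without the macrophage-RNA cells), with a median of -0.03. Flt3, whose ligand drives dendritic cell development, had 109 and 116 CPM (-0.08).

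For the lists that follow, counts over all pDCs stand beside 3.27% higher and 2.26% lower of all genes measured. Secretory genes, which pDCs share with plasma cells, gave 1 higher gene of 20 measured (21 listed), 0 lower and a median of 0.16. It was Mzb1, an endoplasmic reticulum chaperone of B-lineage cells, at 257 CPM in KO and 159 in WT (0.69 [0.37, 1.00]), past the rule in all 15 alternatives. Hsp90b1, the chaperone of Toll-like receptors, had 1071 and 946 CPM (0.18) and Xbp1, the unfolded protein response factor, 321 and 314 CPM (0.03). Of 20 proliferation genes 4 were measured, none past the rule, with a median of -0.11, and Mki67 had 2 UMIs in each library. Of 22 early response and stress genes 17 were measured, 0 higher and 4 lower (Dusp1, Hsph1, Hspa1b and Hspa1a), with a median of -0.13, and Fos had 442 and 587 CPM (-0.41). Without the macrophage-RNA cells Jun and Ier2 were higher and 3 genes lower, with a median of 0.08, and Dusp1 was at -0.17 against -1.05 with them. Of 20 transitional and cDC genes 11 were measured, with Mgl2 higher (0.92), 0 lower and a median of 0.15, but Mgl2 was at -0.11 without the macrophage-RNA cells. Of 15 tolerance and death-ligand genes 6 were measured, 0 higher and Arg1 lower, with a median of 0.33, and Ido1 and Gzmb had 0 and 1 UMIs in KO and 1 and 3 in WT.

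**Figure D5:**
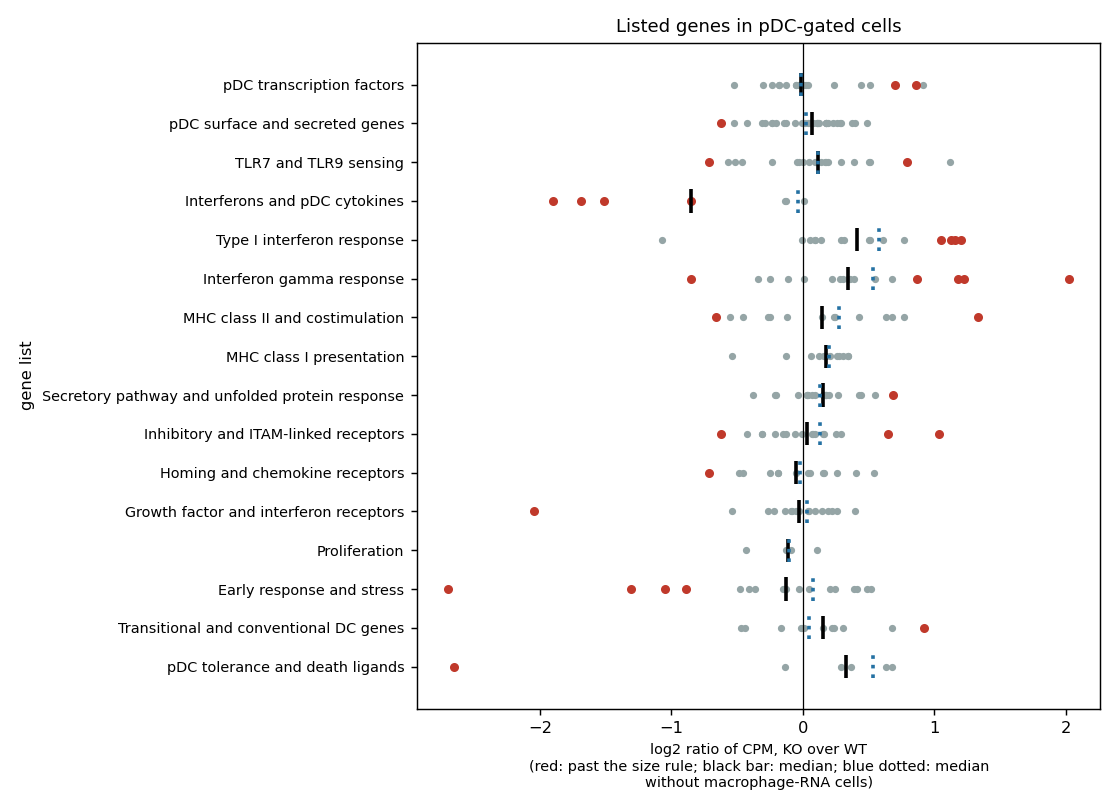
Log2 ratio of CPM, KO over WT, in pDCs (horizontal axis) for the measured genes of 16 lists (rows); red points are past the size rule, black bars are list medians and blue dotted bars medians without the 6 macrophage-RNA cells; Ccr7, at 0 UMIs in KO, is not drawn. The interferon response lists have medians of 0.41 and 0.34, whereas identity and surface genes lie around 0.

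Summed over all pDCs, RNA of other cell types was lower in KO for macrophage, B-cell, neutrophil and erythroid genes. Of 11 macrophage and monocyte genes 10 were measured, 0 higher and 7 lower, beside 3.27% and 2.26% of all genes. Their sum was 586 CPM in KO and 1459 in WT pDCs, and their median -2.03. Without the macrophage-RNA cells the sum was 478 and 505 CPM, a log2 ratio of -0.08 [-0.29, 0.13], and the median -0.17 over 4 genes. Ccr2 gave 151 CPM of that sum in KO and 200 in WT. Cd68 had 235 and 241 CPM over all pDCs and was seen in 82.4% and 78.8% of them. The sum is therefore no measure of macrophage RNA alone. Adgre1 had 0 UMIs in KO and 8 in WT. The B-cell list summed to 39.7 CPM (24 UMIs) in KO and 82.9 CPM (101 UMIs) in WT, a log2 ratio of -1.06 [-1.77, -0.41] that was -1.07 without the macrophage-RNA cells. Its 1 measured gene of 10, Cd79b, was short of the rule, Cd79a had 0 UMIs in KO and 17 in WT, and Ms4a1 and Cr2 were at 0. The neutrophil list (0 of 7 measured) summed to 2 UMIs in KO and 19 in WT, a ratio of -2.24 [-5.38, -0.18]. Without the macrophage-RNA cells that ratio was -2.05 [-5.22, 0.03], an interval that includes 0. The erythroid list (0 of 5) summed to 0 and 10 UMIs. The T-cell list summed to 54.6 CPM in KO and 64.0 in WT (1 of 10) and the NK list to 402 and 369 (1 of 10), nearly all of it Klrd1, which pDCs express. The plasma-cell list summed to 482 and 442 CPM (4 of 10 measured, most of it Xbp1) and the melanoma list to 14.9 and 23.8 (1 of 7), with no measured gene of the lists other than the macrophage one past the rule. Beyond the values without the macrophage-RNA cells, the part of other cells' RNA in these results was not tested.

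The gate left out cells that carried the pDC genes. Of cells with 3 or more Siglech UMIs, 118 in KO and 270 in WT, all had Tcf4. T, B or NK limits removed 15 KO and 59 WT cells at median depths of 14150 and 17027 UMIs, above the depth of pDCs. The dendritic limits alone removed 35 KO and 74 WT cells at median depths of 8468 and 8938 UMIs, like those of pDCs. The deepest of them had 15582 UMIs in KO and 36191 in WT. Of these cells 22 and 50 exceeded the Cd209a limit, 11 and 14 the Xcr1 and Clec9a limit, and 2 and 10 both. With both limits lifted, chosen after seeing the data, pDCs were 0.925% of KO and 1.89% of WT cells, a log2 ratio of -1.03 [-1.39, -0.69]. Apoe then had 28 UMIs in KO and 934 in WT, against 20 and 162 under the limits, and C1qc 2 and 230, against 2 and 71. The median log2 ratio of the macrophage list was -1.13, against -2.03. Ratios with the limits lifted thus rest on cells with other amounts of macrophage-gene RNA, whose part in them was not tested.

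The Siglech and Cd209a cells differed more between the libraries than the pDCs did in several genes. Cox6a2 had 388 CPM (74 UMIs) in 22 KO and 1054 CPM (513 UMIs) in 50 WT cells, a log2 ratio of -1.44 [-1.82, -1.09], against 0.06 [-0.06, 0.18] in pDCs. Ccr9 had 451 and 841 CPM (-0.90 [-1.25, -0.56]) and H2-Aa 393 and 939 CPM (-1.26 [-1.63, -0.90]). Ly6c2 had 4265 and 2435 CPM (0.81 [0.68, 0.94]), against 3570 and 2759 CPM in pDCs. Tcf4 had 1818 CPM in KO and 1716 in WT cells of this kind, against 1521 and 1880 CPM in pDCs, and Bst2 had 3400 and 3336 CPM, against 3827 and 3841 CPM. These cells were few, and the differences between them and the pDCs were not tested.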

How the data were processed

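The data were UMI counts per gene and barcode, deposited by the authors as whole numbers with no normalization, from 1 KO and 1 WT library made with the 10x Chromium 3' chemistry. Per the submitters' processing notes, mm10, Cell Ranger and STAR were used; per the file headers the Cell Ranger pipeline was version 5.0.0. The sources used here do not give the annotation release. Gene positions came from GENCODE on GRCm38 by gene ID, which placed 32158 of 32285 features.

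The rule of the pDC gate was applied to raw counts in Python 3.11.15 with numpy 2.4.6 and scipy 1.17.1. UMIs were summed over gated cells per library and scaled to CPM. Log2 ratios carry exact conditional binomial 95% intervals, shares exact Clopper-Pearson intervals, and a count of 0 a floor of 3 UMIs. Total depth per library and for the pDC gate is in the report, and intervals cover counting error only. The code was tested on simulated data. No test was possible between single libraries. Doublets were not removed beyond the gate's limits. In scanpy 1.11.5 Scrublet called 0 KO and 379 WT cells (3.40%), so the caller had not worked in KO, and the alternative removed the expected share of top scores, 1015 and 1020 cells. TMM factors came from edgeR 4.0.16 in R 4.3.3. Other alternatives moved the gate, cell filters, depth, scaling and UMI minimum.

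Genes were named by rank: at least 50 UMIs, 20 CPM or more in whichever library had more, a level there of 0.1 or more of that in the gate richest in the gene, without mitochondrial, ribosomal, haemoglobin, receptor-segment, clone-named and sex-linked inactivation genes, ordered by the interval bound nearest to 0, 12 each way, plus list members past the size rule and up to 4 by CPM. Other gene values shown, such as levels by gate, were chosen after they were seen. The gate, the 24 lists and the tests were chosen with earlier results of these data known. Sfpi1, Mx1 and Mx2 of the lists are not analysed here.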

Additional observations from a re-analysis of the deposited data

Results flagged for a closer look

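A few genes lay on opposite sides of 0 past the size rule in pDCs and in another dendritic gate of the same libraries. None of these differences between gates was tested, and their causes were not tested. Thbs1 had a log2 ratio, KO over WT, of 1.44 in pDCs, against -2.04 [-2.52, -1.59] in cDC1 and -0.76 [-1.17, -0.36] in cDC2 cells, but all of its pDC UMIs in KO were in 1 cell with macrophage RNA. Gbp6 had 1.23 in pDCs, against -2.23 [-3.98, -0.82] in cDC1 cells, where it had only 5 UMIs in KO and 25 in WT. Hspa1a had -2.70 in pDCs, against 0.95 [0.57, 1.33] in cDC1 cells, and 63.6% of its WT pDC UMIs were in 1 cell. Cxcl10 had -0.85 in pDCs, against 0.81 [0.47, 1.16] in cDC1 and 1.35 [1.23, 1.47] in cDC2 cells, but 61 of its 62 WT pDC UMIs were in cells with macrophage RNA. Without these cells pDCs held 16 UMIs in KO and 1 in WT, and 82.4% of all its KO pDC UMIs were in 1 cell. Arg1 had -2.66 in pDCs, against 2.16 [1.43, 2.97] in cDC2 cells, and Ccl5 had -1.90 in pDCs, against 1.13 [0.87, 1.41] in cDC2 cells; without the macrophage-RNA cells Arg1 was under 20 UMIs in pDCs and Ccl5 was at 0.24.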

How the results depend on the processing

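The pDC share kept its direction under all 10 alternatives and left its counting interval under 1, at a log2 ratio of -1.60 without B cells in the denominator. Against 233 genes higher and 161 lower, thinning to 2000 UMIs gave 89 and 42, a minimum of 100 UMIs 67 and 41, thinning without the macrophage-RNA cells 88 and 41, and lifting the dendritic limits gave 268 lower; fewer UMIs or genes pass under the first 3, and the cause of the last was not tested. Ccl5 reversed to 0.25 with doublet scores removed, 0.076 without the deepest 10% of pDCs, 0.24 without the macrophage-RNA cells and 0.15 without its top cell. Lyz2 reversed to 0.15 without the deepest 10% and 0.51 without the macrophage-RNA cells, Mgl2 to -0.11 without these and -0.26 without its top cell. Cnpy3 reversed to 0.25 in thinned cells and 0.22 in thinned cells without macrophage RNA, and Id2 to -0.80 with the dendritic limits lifted. Of the other gene ratios under alternatives 800 were within their counting interval and 85 moved; of list medians 244 and 16, with the type I interferon list between 0.094 and 0.58. Of the ranked genes, 11 of 12 higher and 6 of 12 lower stayed past the rule without the macrophage-RNA cells. The alternatives on macrophage RNA and the dendritic limits were chosen after seeing the data. No paired analysis was possible because each genotype has 1 library. Depth limits genes under about 20 UMIs, Tlr9 and the interferons among them.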

Other observations

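By chromosome, the share of measured genes past the size rule in pDCs, either way, was highest on chromosome 6, at 9.01% of 344 genes (20 higher, 11 lower), with 7.91% on chromosome 14 and between 3.68% and 6.65% on the other chromosomes apart from M and Y, which had none. Ccnd2, Tpi1, Rpia and Usp18, all higher in KO pDCs, and Klra17, lower, lie on chromosome 6. Genes were not tested for position.

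Among the cells with 3 or more Siglech UMIs left out by the Xcr1 and Clec9a limit alone, 11 in KO and 14 in WT, Klk1 had 785 CPM (74 UMIs) in KO and 170 CPM (35 UMIs) in WT. Cst3 had 1209 CPM in KO and 5557 CPM in WT. Xcr1, used with Clec9a to choose these cells, had 0 UMIs in KO and 14 in WT, so it is no separate measure of cDC1 RNA. The deepest of them had 10969 UMIs in KO and 36191 in WT. Its part in these values was not tested.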
